A study of Drosophila melanogaster with 24 samples.

Results

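The 10 genes described here were Mst84Da, Mst84Db, Mst84Dc, Mst84Dd, Mst87F, Mst98Ca, Mst98Cb, ProtA, ProtB and Mst77F of Drosophila melanogaster, chosen by name from the 12024 genes of the RNA-seq table. All 10 were in the table and all 10 passed the filter on low values. The study asked whether the temperature of the parental generation acts on the next one through the germline or through the microbiome. Every library held RNA of 20 pooled whole males, 0 to 16 h old, of 1 isogenic strain (w1118iso/Dp(1;Y)y+iso;2iso;3iso). The F2 males were all reared at 25 °C, from washed eggs set on food on which F1 males had left faeces, and their group names give the temperature of the faeces donors (M, microbiome) and of the parents that laid the eggs (G, germline). The groups were F2-M18-G18 (4 libraries), F2-M18-G25 (3), F2-M25-G18 (4) and F2-M25-G25 (4) in the F2 generation, and F1-18 (4 libraries, cold-reared at 18 °C) and F1-25 (3, controls reared at 25 °C) in the F1 generation. Eggs of the cold germline were laid at 18 °C, so germline source here also covers the temperature of the egg before transfer. Whole flies were sequenced, so no testis sample was separate.

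A pair of features of the table bear on every value below. In F2-M25-G25, replicates 3 and 4 equalled the mean of replicates 1 and 2 plus a whole number for 7150 genes, including all 10 genes here, and these values were treated as missing, which left n = 2 for that group. The sample labels and the study's library list name the crossed groups the opposite way round: the names used here follow the sample labels, and under the other naming F2-M18-G25 and F2-M25-G18 change places while every value stays. The column names of the table, read with the microbiome first as in the study's own lists, go with the library list and against the sample labels, as does the number of libraries in each crossed group, so the names of these groups are uncertain. A comparison called microbiome source below would then be one of germline source, and the reverse. Over all genes tested, microbiome source had 200 genes past the threshold with G18 and 799 with G25 under the labels' names, and germline source had 77 with M18 and 7 with M25. With the names exchanged, microbiome source had 77 and 7, and germline source 200 and 799. The F1 comparison and that of F2-M18-G18 with F2-M25-G25 have the same names either way.

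The genes belong to the last stages of sperm formation. In Drosophila the Mst84D, Mst87F and Mst98C genes, the Mst(3)CGP family, encode proteins with Cys-Gly-Pro repeats in the sperm tail, and ProtA, ProtB (protamine-like proteins) and Mst77F (a linker-histone-like protein) package DNA in the sperm nucleus once histones are removed. Their mRNAs are made in spermatocytes and held untranslated until spermatids elongate, so the RNA is present well before the protein.

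On Release 6 of the fly genome, the Mst84D genes lay side by side on chromosome 3R: Mst84Dd at 7363307 to 7363773, Mst84Dc at 7364254 to 7364673 and Mst84Db at 7365160 to 7365627 on the minus strand, then Mst84Da at 7365850 to 7366262 on the plus strand. Mst98Ca (28291338 to 28292656) and Mst98Cb (28292798 to 28293863) were another pair of neighbours on 3R, both on the plus strand and each with 1 exon. Mst87F stood alone on 3R (13827151 to 13828008, minus strand). ProtA (14879050 to 14881652) and ProtB (14882101 to 14883721) were neighbours on the minus strand of 2L, and Mst77F was on 3L (20816901 to 20818027, minus strand). Mst84Da, Mst87F and Mst77F each overlapped a gene on the opposite strand (MstProx, lncRNA:CR43300 and Pka-R1), and the reads had been counted by strand. ProtA and ProtB are near-identical paralogs and Mst77F has Y-linked copies, so counting of uniquely mapped reads may have left some of their reads out: the values of these 3 genes are uncertain as levels. The Y-linked copies in the table were low, at 23.4 to 68.4 for Mst77Y-7 and 0 to 10.98 for Mst77Y-13, against 1373 to 1822 for Mst77F.

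All 10 genes were among the abundant transcripts of a whole male. Per kilobase of exon, the median level over the 20 libraries ran between 1940 TMM-normalized reads for Mst84Da (rank 106 of 11180 genes with a known exon length) and 269.8 for ProtA (rank 1049). Mst84Da was above Mst87F (1629.8 per kb) in 19 of 20 libraries, and Mst87F was above Mst77F (1454 per kb) in 17. Mst77F and Mst84Db (1442) could not be ordered, with Mst77F higher in 9 of 20 libraries, nor could Mst98Ca (1342) and Mst84Dc (1330.1), with Mst98Ca higher in 12. Below them stood Mst84Dd (625), ProtB (532) and Mst98Cb (455), and Mst84Dc was above Mst84Dd in 20 of 20 libraries. Within a gene the highest library stood only 1.33 to 1.84 times above the lowest. The highest group mean was that of F1-25 for 7 genes and that of F2-M25-G18 for Mst84Dc, Mst98Ca and Mst98Cb.

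**Figure D1:**
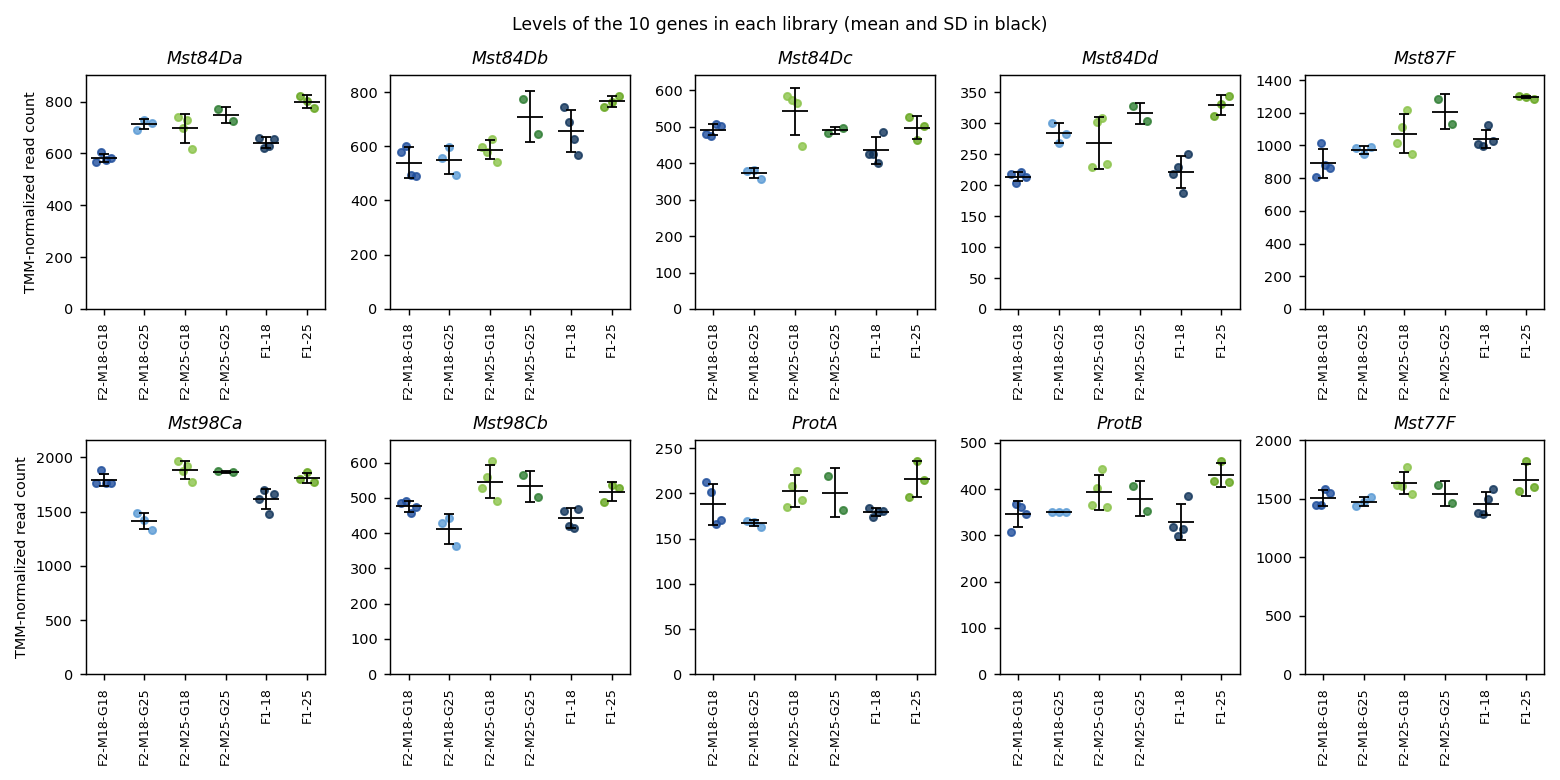
Each panel shows 1 gene, with TMM-normalized read counts on a y axis that starts at 0 and the 6 groups on the x axis; points are libraries, black bars the mean and SD. The 4 F1-18 libraries of Mst84Dd sit between 187 and 250.2, below the F1-25 libraries at 312 to 344, and the 3 F2-M18-G25 libraries of Mst98Ca (1331 to 1484) lie below those of every other F2 group.

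Cold rearing in the F1 generation came with lower values of the whole set. In the comparison of F1-18 with F1-25, 4 of 10 genes fell (limma, adjusted p under 0.05 over 11314 genes), where 12.6% of all genes tested fell, and all 10 log2 fold changes were below 0. The 4 were Mst84Dd, Mst84Da and Mst87F of the sperm tail family and ProtB of the chromatin proteins. In whole flies, fewer spermatocytes and spermatids and less of an RNA per cell cannot be told apart.

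Mst84Dd had 219, 229, 187 and 250.2 TMM-normalized reads in F1-18, against 312, 332 and 344 in F1-25. Every cold-reared library was below every control library, and the fold change was -0.58 ± 0.11 on the log2 scale (SE, adjusted p = 0.000945). Mst84Da, at the other end of the row of Mst84D genes, had 661, 620.1, 627 and 657 in F1-18, against 822, 802 and 774 in F1-25. Here too the groups were apart, with replicates within a narrow range and a log2 fold change of -0.32 ± 0.07 (adjusted p = 0.00373). Mst87F had 1012, 996, 1124 and 1026 in F1-18, against 1303, 1298 and 1286 in F1-25. The control libraries of this gene lay almost on 1 value and the cold ones all below it (log2 fold change -0.32 ± 0.09, adjusted p = 0.0158).

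ProtB had 319, 298, 314 and 384 in F1-18, against 416, 460.4 and 415 in F1-25. Its cold replicate 4 came nearest to the controls without reaching them, and the log2 fold change was -0.39 ± 0.10 (adjusted p = 0.00672). ProtA, the paralog next to it, had 184, 174, 179 and 180.5 in F1-18, against 196, 236 and 215 in F1-25. The groups did not overlap, yet the log2 fold change of -0.26 ± 0.10 missed the threshold (adjusted p = 0.0752). The ratio of ProtB to ProtA was 1.83 ± 0.20 in F1-18 and 2.01 ± 0.11 in F1-25 (SD, n = 4 and 3), a difference within the spread of the libraries. Mst77F had 1379.9, 1373, 1501 and 1586 in F1-18, against 1571, 1822 and 1597 in F1-25, and these ranges overlapped (log2 fold change -0.19, 95% confidence interval -0.36 to -0.02, adjusted p = 0.102).

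The remaining members of the sperm tail family gave smaller differences. Mst98Ca had 1483 to 1699.7 in F1-18, against 1773 to 1863 in F1-25, and Mst98Cb had 416 to 469 in F1-18, against 487 to 537 in F1-25; neither passed (adjusted p = 0.104 for Mst98Ca and 0.0703 for Mst98Cb). Mst84Db had 567 to 745 in F1-18 and 746 to 786 in F1-25, and only for Mst84Dc did the ranges of a family member overlap, at 402 to 487 in F1-18 and 464 to 526 in F1-25. In all, 8 of 10 genes had every cold library below every control library, as had 15.1% of all genes tested. The median log2 fold change of the 10 genes was -0.24, against 0.01 over all genes tested, and all 10 had an unadjusted p under 0.05. The share of all genes under that unadjusted level was not counted, here or in the comparisons below, so such counts are descriptions only.

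The F1 count depended on the fit more than the values did. With limma on the F1 libraries alone, 1 of 10 genes passed (Mst84Dd), and with libraries scaled to equal totals 10 of 10 fell; that scaling moved the median of all genes to -0.14, and relative to it the genes' median was -0.26, the same as in the TMM-normalized values. Mst84Dd passed in all 11 fits that left out 1 F1 library or 1 replicate number, Mst84Da and ProtB in 10 and Mst87F in 8, and leaving out replicate 2 of F1-25 alone took the count to 3 and leaving out replicate 2 of every group took it to 1. Other male tissues moved with this comparison: 15 of 16 accessory gland genes fell, their summed level being 8979 to 13051 in F1-18 and 19278 to 21853 in F1-25. The yolk protein genes, markers of female tissue, summed to 30.1 to 66.4 in F1-18 and 11.2 to 26.5 in F1-25 and Yp2 rose, 1 of the 2 that passed the filter. All 6 listed genes used in every cell had log2 fold changes above 0 (median 0.23), and Act5C alone of them passed. The part of these in the result was not tested.

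**Figure D2:**
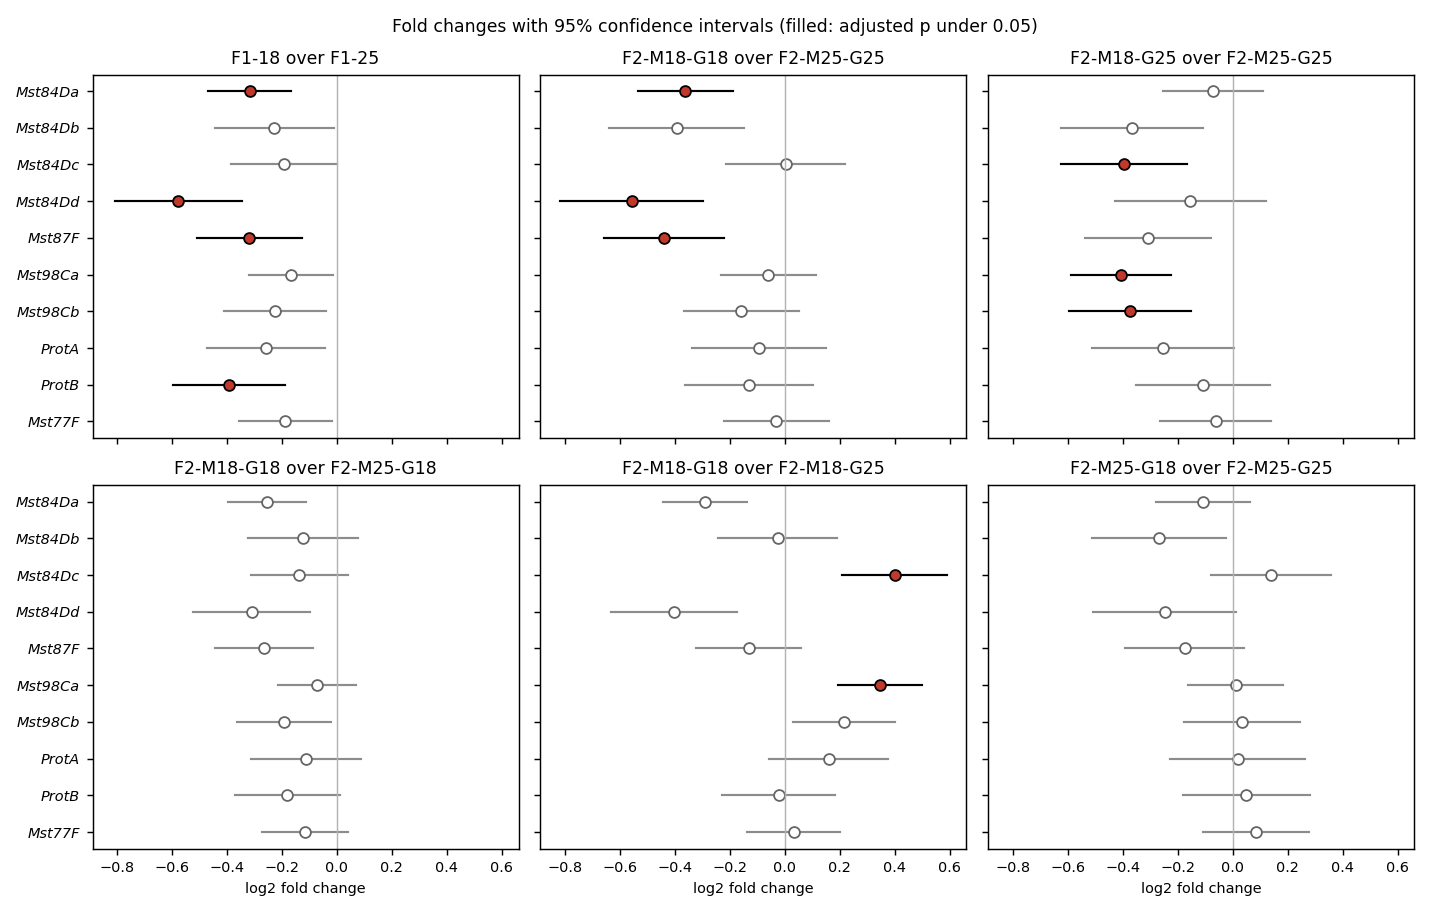
Each panel shows 1 comparison, with the log2 fold change of the first-named group over the second on the x axis and the 10 genes on the y axis; points are fitted values, lines 95% confidence intervals, filled points adjusted p under 0.05. In F1-18 over F1-25 all 10 points lie below 0 and 4 are filled, and in F2-M18-G18 over F2-M18-G25 Mst84Dc and Mst98Ca are filled above 0 while Mst84Da and Mst84Dd lie below it unfilled.

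In the F2 generation, males with both germline and microbiome of the cold line had lower values of some of the same genes, although they themselves had been reared at 25 °C. With full cold history, F2-M18-G18 over F2-M25-G25, 3 of 10 genes fell (Mst84Dd, Mst84Da and Mst87F), where 0.681% of all genes tested fell. Mst84Dd had 217, 203, 222 and 214 in F2-M18-G18, against 328 and 304 in F2-M25-G25. The cold-history libraries were close to each other and far below both controls (log2 fold change -0.56 ± 0.13, adjusted p = 0.0167). Mst84Da had 569, 606, 573 and 582 in F2-M18-G18, against 771 and 727 in F2-M25-G25. This gene showed the smallest relative spread of the 3, with a log2 fold change of -0.36 ± 0.08 (adjusted p = 0.0189). Mst87F had 806, 1017, 877 and 863 in F2-M18-G18, against 1282 and 1132 in F2-M25-G25, so that replicate 2 came nearest to the controls (log2 fold change -0.44 ± 0.10, adjusted p = 0.0233).

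Mst84Db had 577, 599, 494 and 489 in F2-M18-G18, against 775 and 644 in F2-M25-G25. The groups did not overlap, but the controls were far apart from each other and the log2 fold change of -0.39 ± 0.12 missed the threshold (adjusted p = 0.0753). With Mst98Cb, 5 of 10 genes had every F2-M18-G18 library below both F2-M25-G25 libraries, as had 12.8% of all genes tested. The other 5 gave no separation. Mst84Dc averaged 491 ± 15.2 in F2-M18-G18 (SD, n = 4) and 490.3 ± 8.75 in F2-M25-G25 (n = 2), a log2 fold change of 0.00 with a 95% confidence interval of -0.21 to 0.22. For Mst98Ca the interval was -0.23 to 0.11, and for the chromatin genes it was -0.34 to 0.15 (ProtA), -0.36 to 0.10 (ProtB) and -0.22 to 0.16 (Mst77F), which all include 0.

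The median of the 10 genes was -0.14, against -0.01 over all genes tested, and 9 of 10 log2 fold changes had the same sign as in F1, in libraries that the F1 comparison did not use. The share of all genes with the same sign was not counted. Levels of the 10 genes were correlated (all 45 pairs above 0), so these are not separate tests, and Mst77F (-0.03) and Mst98Ca (-0.06) were near 0 in F2. The 3 genes that fell in F2 had all fallen in F1, and how often this held over all genes was not counted. The difference between the F1 and F2 effects, tested in the same limma fit, passed for 0 of 10 genes (0 at an unadjusted p under 0.05), where 4.78% of all genes tested passed. Its intervals were wide, reaching -0.57 for ProtB and 0.49 for Mst84Db. The F2 calls rested on both measured control libraries: without replicate 1 of F2-M25-G25, or without its replicate 2, 0 of 10 genes passed, and the count was 1 without replicate 1 and 2 without replicate 3 of F2-M18-G18. The log2 fold changes of the 3 genes nevertheless lay between -0.61 and -0.30 in the 12 fits that left out libraries. Accessory gland genes gave 1 lower of 16 here (Acp33A), with sums of 9623 to 13053 in F2-M18-G18 and 12475 to 12553 in F2-M25-G25. Their median log2 fold change was -0.30, further from 0 than that of the 10 genes, with 13 of 16 below 0. An unadjusted p under 0.05 was found for 6 of the 16.

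Other genes of the set passed in F2-M18-G25 against F2-M25-G25, a comparison of microbiome source on the control germline by the sample labels and of germline source with the control microbiome by the other naming. Here 3 of 10 genes fell, where 2.71% of all genes tested fell: Mst98Ca, Mst84Dc and Mst98Cb. Mst98Ca had 1484, 1423 and 1331 in F2-M18-G25, against 1875 and 1863 in F2-M25-G25. The 3 F2-M18-G25 libraries and 1 F1-18 library at 1483 were the 4 lowest of the 20 (log2 fold change -0.41 ± 0.09, adjusted p = 0.0111). Mst84Dc had 379, 382 and 357 in F2-M18-G25, against 484 and 496 in F2-M25-G25. All 3 were below every other library of the series (log2 fold change -0.40 ± 0.11, adjusted p = 0.0345). Mst98Cb, the neighbour of Mst98Ca, had 429, 442 and 362 in F2-M18-G25, against 563 and 501 in F2-M25-G25, a wider spread with no overlap (log2 fold change -0.37 ± 0.11, adjusted p = 0.0383).

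Mst84Da and Mst84Dd, which had fallen with full cold history, did not pass here. Mst84Da had 691, 729 and 716 in F2-M18-G25, against 771 and 727 in F2-M25-G25, with overlapping ranges and a 95% confidence interval of -0.25 to 0.11. Mst84Dd had 300.5, 268 and 283 in F2-M18-G25, against 328 and 304 in F2-M25-G25 (interval -0.43 to 0.12). Every F2-M18-G25 library was below both controls for 8 of 10 genes, as for 18.9% of all genes tested, and the median log2 fold change was -0.28, against 0.00 over all genes. This comparison shares the F2-M25-G25 libraries with the preceding one. Leaving out replicate 4 of F2-M18-G25, or replicate 1 or 2 of F2-M25-G25, took the count to 0, and leaving out replicate 1 of F2-M18-G25 took it to 1.

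F2-M18-G18 males had lower values than F2-M25-G18 males, without calls. By the sample labels these groups differ in microbiome source, and by the other naming in germline source. In this comparison limma called 0 of 10 genes, where 1.77% of all genes tested passed; 4 had an unadjusted p under 0.05 and all 10 log2 fold changes were below 0 (median -0.16, against 0.01 over all genes). Mst84Da was nearest to the threshold, with 569, 606, 573 and 582 in F2-M18-G18, against 741, 698, 730.0 and 617 in F2-M25-G18. The groups did not overlap, and replicate 4 of F2-M25-G18 stood closest to the F2-M18-G18 libraries (log2 fold change -0.25 ± 0.07, adjusted p = 0.0578). Mst84Dd had 217, 203, 222 and 214 in F2-M18-G18, against 229, 302, 308 and 234 in F2-M25-G18, where the F2-M25-G18 libraries fell in a low and a high pair (adjusted p = 0.146). The highest of them, replicate 3, had by its column name the fewest aligned reads in the study's list. With Mst98Cb, 3 genes had every F2-M18-G18 library below every F2-M25-G18 library, as had 5.03% of all genes tested. Without replicate 4 of F2-M25-G18, 2 of 10 genes passed.

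**Figure D3:**
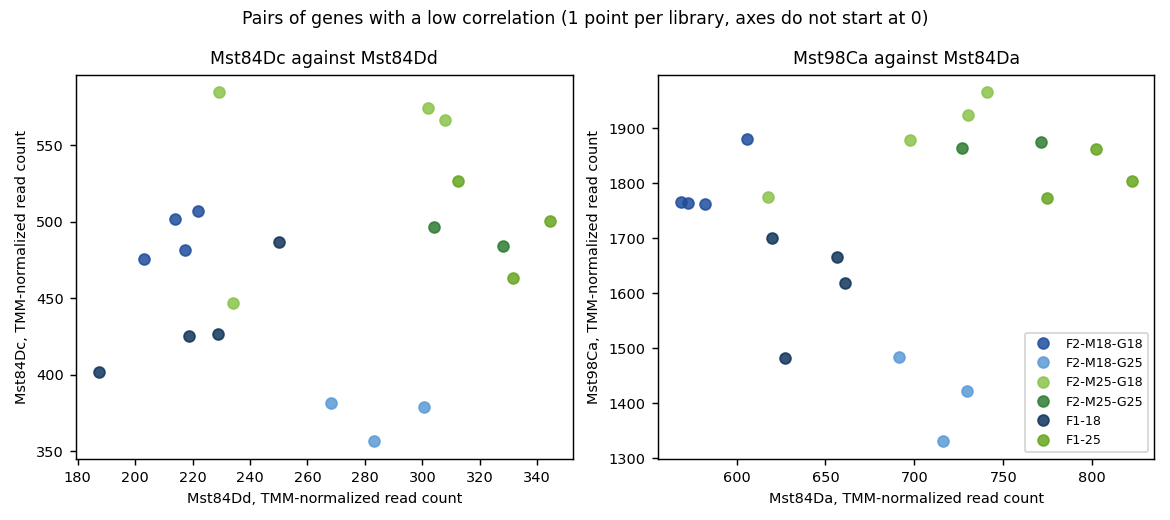
Each point is 1 library, coloured by group; the left panel sets Mst84Dc (y) against its neighbour Mst84Dd (x) and the right panel Mst98Ca (y) against Mst84Da (x), all in TMM-normalized read counts. The 4 F2-M18-G18 libraries lie at low x (203 to 222 on the left, 569 to 606 on the right) and the 3 F2-M18-G25 libraries at low y (357 to 382 on the left, 1331 to 1484 on the right), so that these groups stand apart from each other in both panels. F1-18 libraries share the low x on the left (187 to 250), and on the right F2-M25-G18 replicate 4 (x of 617) lies near F2-M18-G18.

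The set was split in F2-M18-G18 against F2-M18-G25, which differ in germline source by the sample labels and in microbiome source by the other naming. Mst84Dc and Mst98Ca rose, 2 of 10 genes where 0.309% of all genes tested rose, and no gene of the set fell. Mst98Ca had 1766, 1881, 1763 and 1763 in F2-M18-G18, against 1484, 1423 and 1331 in F2-M18-G25, a clear gap (log2 fold change 0.34 ± 0.07, adjusted p = 0.0282). Mst84Dc had 482, 475, 507 and 502 in F2-M18-G18, against 379, 382 and 357 in F2-M18-G25, with both groups tight (log2 fold change 0.40 ± 0.09, adjusted p = 0.0455). Mst84Da and Mst84Dd went the other way without passing. Mst84Da had 569 to 606 in F2-M18-G18 and 691 to 729 in F2-M18-G25 (log2 fold change -0.29 ± 0.07, adjusted p = 0.0759), and Mst84Dd had 203 to 222 in F2-M18-G18 and 268 to 300.5 in F2-M18-G25 (log2 fold change -0.40 ± 0.11, adjusted p = 0.0967).

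Groups did not overlap for 3 genes that were higher in F2-M18-G18 (Mst84Dc, Mst98Ca and Mst98Cb) and for 2 that were lower (Mst84Da and Mst84Dd), as for 8.33% of all genes tested in the upward and 8.16% in the downward direction. The calls were fragile, since leaving out any 1 library of either group took the count to 0, while the log2 fold changes stayed between 0.30 and 0.43 for the 2 genes that rose. In F2-M25-G18 against F2-M25-G25 (germline source by the labels, microbiome source by the other naming), limma called 0 of 10 genes, where 0.0619% of all genes tested passed, and only Mst84Db had an unadjusted p under 0.05 (log2 fold change -0.27, 95% confidence interval -0.51 to -0.02). Across the 10 genes that comparison had log2 fold changes of -0.27 to 0.14 and a median of 0.01. The test of the microbiome by germline interaction passed for 0 of 10 genes and for 0.00884% of all genes tested. Mst98Ca alone had an unadjusted p under 0.05, with an interaction of 0.33 on the log2 scale (95% confidence interval 0.10 to 0.56, adjusted p = 0.403).

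The generation comparisons at matched history called no gene of the set. In F2-M18-G18 against F1-18, which differ in rearing temperature as well as generation, limma called 0 of 10 genes, where 14.8% of all genes tested passed, and 4 had an unadjusted p under 0.05 (Mst84Db, Mst87F, Mst84Dc and Mst98Ca). Mst84Db had 577, 599, 494 and 489 in F2-M18-G18, against 745, 689, 626 and 567 in F1-18, with overlapping ranges (log2 fold change -0.28 ± 0.10, adjusted p = 0.0544). Leaving out replicate 2 of F2-M18-G18 brought 2 genes past the threshold, and leaving out replicate 4 of F1-18 brought 1. In F2-M25-G25 against F1-25, both reared at 25 °C, limma again called 0 of 10, where 6.59% of all genes tested passed, with 0 at an unadjusted p under 0.05 and log2 fold changes of -0.18 to 0.04. The summed level of the 10 genes was 7666 and 8323 in F2-M25-G25, against 8184 to 8579 in F1-25. In the same comparison 13 of 16 accessory gland genes fell (median log2 fold change -0.69).

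The 10 genes therefore varied in more than 1 pattern. Over the 20 libraries, the correlation of log2 levels was above 0 for all 45 pairs, but ran between 0.11 and 0.89 with a median of 0.51; values of 1 library share its normalization, and the libraries fall into 6 groups, so these are descriptions without a test. Mst84Da was close to Mst84Dd (r = 0.83) and Mst87F (0.82). Mst84Dc was close to Mst98Ca (0.89) and Mst98Cb (0.81), which lie elsewhere on 3R. Mst84Da and Mst98Ca, in contrast, had r = 0.11, and Mst84Dc and Mst84Dd, which are neighbours on 1 strand, had r = 0.15. For these pairs the low values lay in the group means: within groups, after the group mean was taken off, Mst84Da and Mst98Ca had r = 0.47 and Mst84Dc and Mst84Dd had r = 0.49. Other low pairs did not rise within groups. Mst84Db had r = 0.14 with Mst84Dc (-0.04 within groups) and 0.14 with Mst77F (-0.27 within groups). ProtB and Mst77F were close in both views (0.87 over all libraries, 0.77 within groups).

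**Figure D4:**
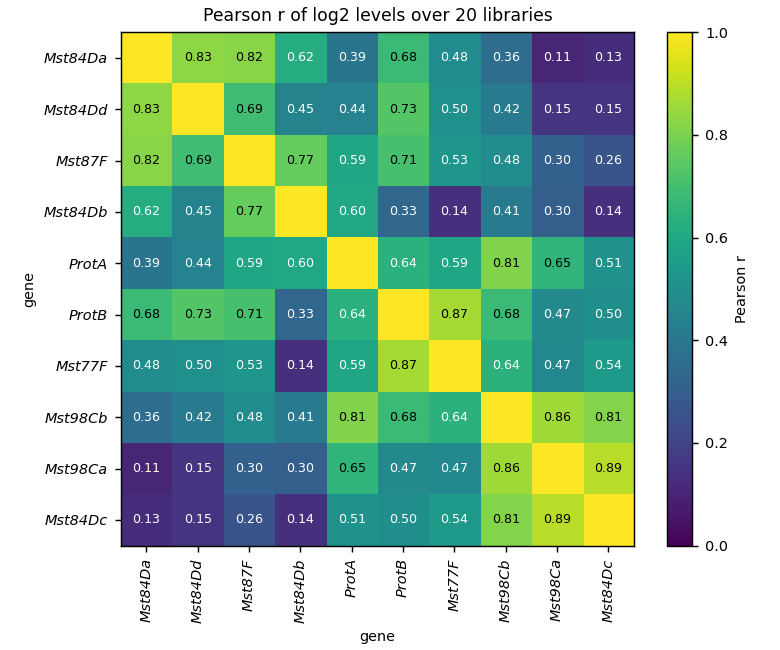
Both axes list the 10 genes and each cell gives the Pearson correlation of their log2 levels over 20 libraries, coloured on a scale of 0 to 1. Mst84Da, Mst84Dd and Mst87F form 1 block (0.69 to 0.83), Mst98Ca, Mst98Cb and Mst84Dc another (0.81 to 0.89), and the cells between these blocks run between 0.11 and 0.48.

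The ratio of Mst84Dc to Mst84Dd, a pair chosen after their values were seen and therefore given without a test, showed the split most directly. It was 2.21 to 2.35 in F2-M18-G18, 1.26 to 1.42 in F2-M18-G25, 1.84 to 2.55 in F2-M25-G18 and 1.48 to 1.63 in F2-M25-G25. In the F1 generation it was 1.86 to 2.14 in F1-18 and 1.40 to 1.69 in F1-25. All libraries of F2-M18-G18, F2-M25-G18 and the cold-reared F1 had a ratio of at least 1.84, and all others one of at most 1.69. The high ratios in F2 are those of the cold germline by the sample labels and of the cold microbiome by the other naming. The ratio of Mst98Ca to Mst98Cb, in contrast, was 3.19 to 4.05 over the 20 libraries and overlapped between all groups.

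Other genes of late spermatogenesis showed whether the set moved alone. In F1-18 against F1-25, 5 of 6 other spermatid chromatin genes fell (median log2 fold change -0.39), among them Prtl99C, a protamine-like gene, at 161 ± 10.4 in F1-18 and 229 ± 18.8 in F1-25, and Tpl94D, a transition protein gene, at 16.6 ± 4.33 in F1-18 and 25.4 ± 3.85 in F1-25 (SD, n = 4 and 3). Of 18 other late spermatid and sperm genes 13 fell and none rose (median -0.36), including fzo, the spermatid mitochondrial fusion gene (log2 fold change -0.58 ± 0.11, adjusted p = 0.00122), dj (-0.41) and the testis tubulin gene betaTub85D (-0.33). Of 15 comet and cup genes, which are transcribed after meiosis, 8 fell (median -0.34). Of all genes tested, 12.6% fell in this comparison. The median of the 10 genes (-0.24) was thus nearer to 0 than those of these lists, a comparison of medians that was not tested.

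Genes that act before these stages gave a mixed picture in F1. The 4 measured testis TAF genes (tTAFs), testis forms of general transcription factor subunits that switch on spermatid genes in spermatocytes, all fell, with a median log2 fold change of -1.06: nht (-1.28), mia (-1.16), sa (-0.95) and can (-0.68). They were low in level, with sums of 50.2 to 88.3 in F1-18 and 132 to 156 in F1-25. Of the 8 genes of the testis meiotic arrest complex (tMAC), the other regulator of this program, topi rose (0.50) and mip40 fell (-0.43). In all, 6 of these 8 had log2 fold changes below 0, with a list median of -0.23. In the meiotic and early germline list 2 of 6 tested genes fell, twe (the meiotic cell cycle phosphatase, -0.76) and bgcn (-0.50), and bam and zpg were below the filter.

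**Figure D5:**
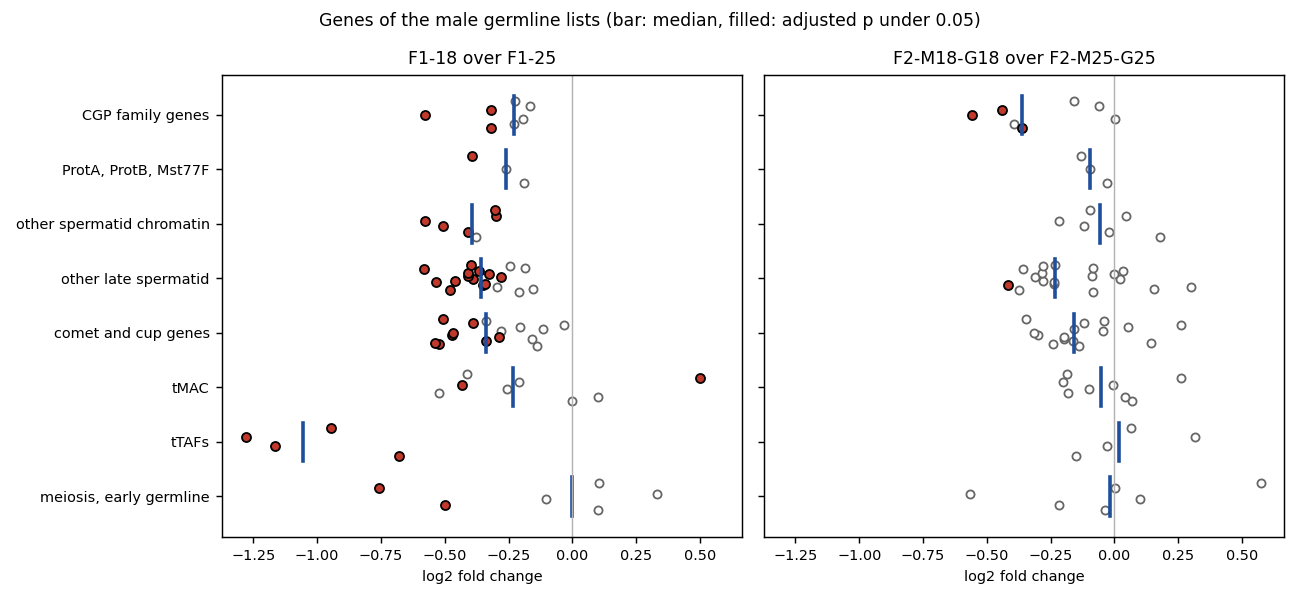
The x axis gives log2 fold changes of F1-18 over F1-25 (left) and F2-M18-G18 over F2-M25-G25 (right) and the y axis the lists of male germline genes; points are genes, filled where adjusted p was under 0.05, and blue bars are list medians. The 4 tTAF genes lie between -1.28 and -0.68 on the left and between -0.15 and 0.32 on the right, while the medians of the CGP family (-0.23 in F1 and -0.36 in F2) lie below 0 in both. So do the medians of the other late spermatid genes (-0.36 in F1 and -0.23 in F2) and the comet and cup genes (-0.34 and -0.16).

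Fewer genes of these lists passed in F2, and fewer over all genes tested: 0.681% fell with full cold history, against 12.6% in F1. With full cold history (F2-M18-G18 over F2-M25-G25), 1 of 18 late spermatid and sperm genes fell (S-Lap1, a sperm aminopeptidase gene, log2 fold change -0.42, adjusted p = 0.0362), with 0 of 6 other chromatin genes, 0 of 15 comet and cup genes and 0 of 4 tTAF genes passing limma's threshold in either direction. The unadjusted p was under 0.05 for 9 of the 18, 5 of the 15 and 0 of the chromatin and tTAF genes. The median log2 fold change was -0.23 for the 18 (14 below 0) and -0.16 for the 15 (12 below 0). It was -0.14 for the 10 genes of the set, -0.06 for the other chromatin genes and 0.02 for the tTAF genes. These medians were not tested against each other. For mia, nht and twe the F1 and F2 effects differed in the test of the difference (adjusted p = 0.0328 for mia, 0.0207 for nht and 0.014 for twe), which 4.78% of all genes tested passed. In F2-M18-G25 against F2-M25-G25, 4 of 18 late spermatid and sperm genes fell (S-Lap7, S-Lap1, loopin-1 and S-Lap2, at -0.49 to -0.30) and 4 of 15 comet and cup genes fell (hale, boly, p-cup and f-cup, at -0.60 to -0.32), beside the 3 Mst genes of that comparison. There 2.71% of all genes tested fell.

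By a rule that used the mean standardized level of the 10 genes over 20 libraries, the 5 genes outside all lists with the most similar pattern were CG10252 (r = 0.93), Gpo3 (0.92), CG12679 (0.90), Bfc (0.90) and Adk1 (0.89). CG10252 averaged 1662 in F1-18 and 2245 in F1-25, and in F2 1687 in F2-M18-G18, 1651 in F2-M18-G25, 1947 in F2-M25-G18 and 2145 in F2-M25-G25. Of the set itself, ProtB (r = 0.88) and Mst98Cb (0.86) followed that mean most closely and Mst84Db (0.63) least, the mean including each gene's own values.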

How the data were processed

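RNA of 20 pooled whole males per library was sequenced by the authors, who removed rRNA reads, trimmed with Trimmomatic 0.32, mapped with STAR 2.4.0f1 to the Release 6 genome and counted uniquely mapped reads by strand with HTSeq 0.6.1 (per the labels and the study's methods). The deposited table holds signal values: read counts normalized by the authors with edgeR's TMM, 12024 genes by 22 libraries, of 24 samples listed. Columns summed to 3702933 to 4398050 after normalization, which is not the depth. The study's list of aligned reads shows that depth differed widely between libraries. It was lowest in the library that, by its column name, is F2-M25-G18 replicate 3 here, and next lowest in F2-M18-G18 replicate 1. The fit gave all libraries equal weight. Low values were whole multiples of a step (within 0.05 of it) for 100% in F1-18 replicate 2, where the values are close to whole reads, and for 12.8 to 79.0% in the other 21 libraries, so read counts were not recovered and no count model was run; precision was taken from the spread between libraries.

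Values were tested as log2(value + 2) with limma 3.58.1 in R 4.3.3 (1 mean per group, moderated variance with a trend, two-sided) for the 11314 genes that reached 10 in 3 or more libraries, and p was adjusted by Benjamini-Hochberg over all of them with a threshold of 0.05. Fold changes on this scale understate those of low genes. Values of F2-M25-G25 replicates 3 and 4 that equalled the mean of replicates 1 and 2 plus a whole number (63.2% of genes tested) were set missing. Libraries are separate samples per the labels, and the study's methods call them biological replicates. All 10 genes are named by rule, genes of other lists where they passed the threshold or were picked to show a value, and similar genes by the 5 highest correlations. The 10 genes and the lists were chosen with earlier results of these data known. Coordinates and lengths come from an Ensembl annotation of Release 6; symbols were matched for 11888 gene identifiers. Alternatives were the pseudocount, the filter, scaling to equal totals or median of ratios, fewer libraries, a replicate block, calculated values kept, crossed groups exchanged, no variance trend, exact permutation tests and left-out libraries. The limma step was tested on simulated data. Same-numbered libraries did not deviate together in every comparison (correlation of deviations -0.29 to 0.32), and the main fit did not use them as pairs. For microbiome source with G18 all 4 such pairs were above 0 (mean 0.09, other pairs -0.03). The mean was 0.12 for the cold line between generations (other pairs -0.04), -0.13 for F1 (0.05) and -0.05 for germline source with M18 (0.02). Deviations in a group of 2 libraries mirror each other, so its comparisons cannot decide this. A shared origin of same-numbered libraries was not excluded.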

Additional observations from a re-analysis of the deposited data

Results flagged for a closer look

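In groups of 4 libraries, 2 of 30 combinations of gene and group had 1 library far from the other 3 (Dixon's test at the 95% level, by which chance alone would mark about 1 in 20). Mst84Dc was low in replicate 4 of F2-M25-G18, at 447, and Mst98Ca was high in replicate 2 of F2-M18-G18, at 1881.

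For 3 genes of the spermatocyte and meiosis lists, the effect of cold rearing in F1 differed from that of cold history in F2 in limma's test of the difference. They were 2 of 4 tTAF genes and 1 of 6 meiosis and early germline genes. None passed among 8 tMAC, 6 other spermatid chromatin, 18 other late spermatid and 15 comet and cup genes. Of all genes tested, 4.78% passed, and the lists were not tested against that share. The difference, F1 effect minus F2 effect on the log2 scale, was -1.14 for mia, -1.60 for nht and -0.76 for twe. In F1, mia averaged 19.2 ± 7.88 in F1-18 and 43.6 ± 7.74 in F1-25, nht 8.49 ± 3.71 in F1-18 and 22.2 ± 5.08 in F1-25, and twe 116 ± 7.03 in F1-18 and 201 ± 39.6 in F1-25 (SD, n = 4 and 3). In F2, mia averaged 44.9 ± 8.20 in F2-M18-G18 and 45.4 ± 4.31 in F2-M25-G25 (n = 4 each), nht 17.1 ± 1.32 in F2-M18-G18 and 13.7 ± 4.27 in F2-M25-G25 (n = 4 each), and twe 167 ± 16.8 in F2-M18-G18 (n = 4) and 166 ± 1.01 in F2-M25-G25 (n = 2). In F1-18 every library of the 3 genes was below every library of F1-25.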

How the results depend on the processing

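Among the log2 fold changes of single genes named in the text, 509 of their values under an alternative kept direction and call, 73 lost the call, 20 gained one and 6 changed direction, all of these on exchanging the crossed groups: Mst98Ca 0.012, Mst84Dc 0.14 and Mst98Cb 0.034 for microbiome source with G25, and Mst84Dc -0.14, Mst98Ca -0.072 and Mst98Cb -0.19 for germline source with M18. Under that exchange the counts of the 10 genes past the threshold were 2 for microbiome with G18 (median 0.0044), 0 for microbiome with G25 (0.014), 0 for germline with M18 (-0.16) and 3 for germline with M25 (-0.28), which follows from its construction; the causes of the other changes were not tested. Scaling to equal totals gave 10 in F1 (median -0.40), a median of -0.26 for full cold history in F2, 1 for microbiome with G18, 6 for microbiome with G25 (-0.47), a median of 0.076 for germline with M18, and 1 for the cold line between generations (0.15). With only the 2 groups' own libraries F1 gave 1. The replicate block gave 1 for microbiome with G25, 1 for germline with M18 and 1 for the cold line between generations. The labels do not say whether same-numbered libraries share an origin, and no other count of the 10 genes moved by over 1.5 times. Without the variance trend the counts were 1 for microbiome with G25 and 0 for germline with M18. Calculated values kept as in the file gave 1 for microbiome with G18, 6 for microbiome with G25 and 1 for the cold line, a filter of 50 gave 1 for microbiome with G18 and 1 for the cold line, and unadjusted exact permutation tests gave 3 for microbiome with G18 and 2 for the cold line (other comparisons are too small for p under 0.05). Leaving out libraries gave counts of 1 to 4 in F1, 0 to 3 for full cold history in F2 (median -0.27 to -0.065), 0 to 2 for microbiome with G18 (-0.23 to -0.12), 0 to 3 for microbiome with G25 (-0.39 to -0.17), 0 for germline with M18, a median of -0.10 to 0.068 for germline with M25, 0 to 2 for the cold line and a median of -0.17 to 0.0087 for the control line; a group left with 1 library was assumed to vary like the others. Over all genes, calls ran between 1165 and 2959 for F1 (2660 in the main fit), 224 and 1274 for full cold history in F2 (329), 77 and 517 for microbiome with G18 (200), 7 and 2196 for microbiome with G25 (799), 43 and 200 for germline with M18 (77), and with libraries left out between 869 and 2846, 0 and 495, 0 and 429, 1 and 905, and 1 and 50. The tests of the F1 and F2 difference and of the interaction called 0 of the 10 genes under every alternative run. Sensitivity to smaller changes was limited by n = 2 in F2-M25-G25.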
